A study of Mus musculus with 16 samples.

Results

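The effect of LPS on m6A was measured in peritoneal macrophages (PMs) that lack ADAP, on 2398 of the 7069 distinct peaks of the series, and these selected peaks lie on 1840 of its 4943 genes. A peak was selected if its mean raw input CPM over the 2 Adap-/- LPS libraries was 0.5 to 2 times that over the 2 Adap-/- mock libraries. Of the remaining peaks, 761 lay above this window, 3847 lay below it and 63 had no ratio. The measurement is methylated RNA immunoprecipitation sequencing (MeRIP-seq), in which fragmented RNA is pulled down with an m6A antibody (the IP library) and compared with the same RNA before the pull-down (the input library). The readout for each peak is the IP-to-input ratio, that is, IP reads over input reads, both in CPM, reads scaled to a common library total, after TMM scaling, edgeR's correction for differences in library composition.

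N6-methyladenosine (m6A) is placed on mRNA by a methyltransferase complex with METTL3 as its catalytic subunit and METTL14 and WTAP as partners, is removed by the demethylases FTO and ALKBH5, and is bound by readers such as the YTHDF and YTHDC proteins. It is found mostly in long exons, around stop codons and in 3'UTRs, and it affects how long an mRNA lasts and how well it is translated. LPS is sensed by TLR4 and switches macrophages to the expression of cytokine, interferon-response and feedback genes. ADAP, encoded by Fyb1, is an adaptor protein of hematopoietic cells.

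The Adap-/- PMs came from mice deficient in ADAP on a C57BL/6 background, aged 6 to 8 weeks, by peritoneal lavage 3 days after 3% thioglycolate. They received LPS at 1 μg/ml over 6 h or a mock treatment. WT PMs of the same background, obtained and treated in the same way, were used for comparison. Each of the 4 groups had 2 replicates, each with an IP and an input library, 16 libraries in all. The knockout is not limited to a cell type, so the mice lacked ADAP in other hematopoietic cells too. No source used here states whether the 2 replicates of a group came from separate mice or cultures, so the p-values below measure the spread between these libraries, which may be technical.

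Adap-/- IP libraries held 5728590 to 19030373 reads on peaks and Adap-/- input libraries 2121313 to 4221505. Of the 7 macrophage markers checked (Adgre1, Cd68, Csf1r, Lyz2, Mertk, Itgam and Cd14), 6 had a peak, and their summed input level was 12175 and 13344 TMM-scaled CPM in the LPS libraries and 12844 and 13393 in the mock libraries. The sum covers opposite differences between its largest parts. Cd14 stood at 3545 and 4297 CPM after LPS and 882 and 1099 in mock, Lyz2 at 3470 and 3808 against 6029 and 6233, and Cd68 at 4672 and 4754 against 5660 and 5771. Of 6 neutrophil markers 1 had a peak, Csf3r, at 483 and 493 CPM after LPS and 240 and 243 in mock, and its part in the results was not tested. No marker of B cells, T cells, mast cells, eosinophils, fibroblasts or mesothelium had a peak, but the table covers only transcripts with a peak. In bulk RNA of this kind, fewer cells of a type and less RNA per cell cannot be told apart.

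Fyb1 itself has 2 selected peaks, both in its CDS (chromosome 15, 6609828 to 6610128 and 6610303 to 6610478, GRCm39). On the former, the Adap-/- input libraries held 1 and 0 reads after LPS and 1 and 0 in mock, against 502 to 618 in the WT input libraries. On the latter they held 5, 2, 1 and 5 reads, against 254 to 318 in WT. The IP libraries of the Adap-/- LPS replicates held at most 8 reads on either peak, and IP mock replicate 2 at most 1, whereas IP mock replicate 1 held 59 and 42. The Fyb1 ratios therefore rest on almost no input reads and are not interpreted.

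IP mock replicate 2 of the Adap-/- PMs stood apart from replicate 1 in another way. On 279 peaks raised over 16-fold by LPS in the Adap-/- input, the 2 mock input libraries held 1.96% and 2.1% of the summed level in the LPS input. On the same peaks, IP mock replicate 1 held 7.74% and IP mock replicate 2 held 64.5% of the summed level of the LPS IP libraries. WT mock showed a similar split, with 69.2% in IP replicate 1 and 4.82% in IP replicate 2. LPS-induced transcripts were thus far more abundant in 1 mock IP library of each genotype than in its partner or in the mock inputs. The 279 peaks lie outside the window by construction. Whether the split has a part in the ratios of the selected peaks was not tested, and counts are given below with all replicates and without Adap-/- mock replicate 2 or WT mock replicate 1.

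The 3 selected peaks nearest to the lower limit of the window lay in Kmt2b, Adam17 and Cep85, at ratios of raw input CPM, LPS over mock, of 0.500036, 0.500106 and 0.500217, and the 3 just outside it in Arid1a, Cyb5r3 and YWHAG, at 0.499906, 0.499891 and 0.499878. At the upper limit, Nfkb1, Tor3a and Arhgap35 lay just inside at 1.99, and Lacc1, Plek and Trim56 just outside at 2.003, 2.004 and 2.007. The window is not centred on an unchanged input. Over all peaks with a value the median raw input ratio was 0.470, and over the selected peaks it was 0.699, with quartiles of 0.574 and 0.990. On the TMM scale, 2126 of the 2398 selected peaks had a higher input after LPS, with a median log2 change of 0.41. A window of the same width on TMM-scaled CPM would hold 4482 peaks, of which 1879 are among the selected ones, and 1775 of the selected peaks were also inside the raw window in the WT input libraries.

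Input reads chose these peaks and are also the denominator of the ratio, so the counts for the Adap-/- contrast are descriptions of the selected set. The IP reads were not used for the choice, but they depend on the level of the transcript as the input reads do. Counts for IP reads alone are therefore descriptions of the selected set too. Among the 2193 selected peaks with at least 10 reads in each Adap-/- input library, IP followed input, with a Pearson correlation of 0.644 and a Spearman correlation of 0.638 across peaks, which share libraries and scaling. The median log2 change of the IP reads over the 2397 selected peaks tested was 0.46. In edgeR's quasi-likelihood test of the IP reads alone, 447 selected peaks were higher and 28 lower after LPS by more than 1 log2 unit at an adjusted p below 0.05, where 13.1% and 13.0% of all 7058 peaks tested were. Together these were 19.8% of the selected and 26.1% of all peaks. With an unadjusted p below 0.05 the counts were 491 and 37, beside 14.8% and 14.7% of all peaks, 29.4% together.

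**Figure D1:**
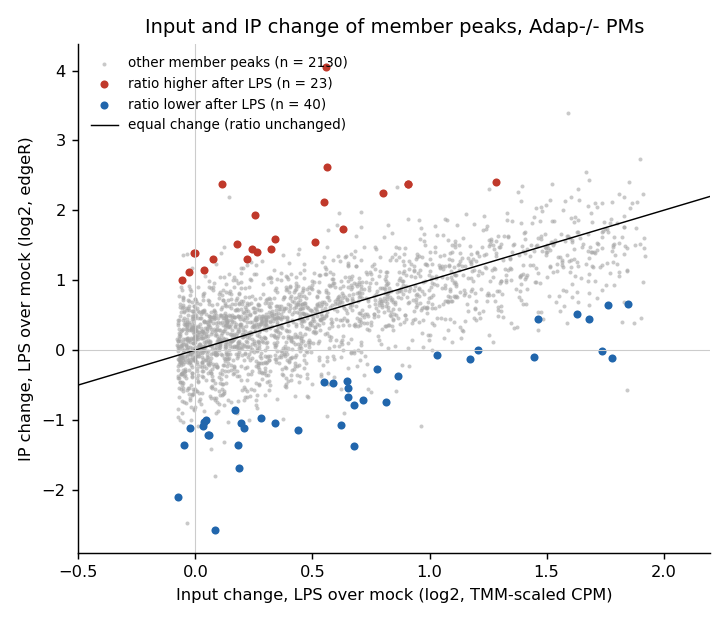
Log2 change with LPS in the input libraries (x axis, TMM-scaled CPM) and in the IP libraries (y axis, edgeR) of Adap-/- PMs, 1 point per selected peak (called member peaks in the plots) with at least 10 reads in each Adap-/- input library (n = 2193). Most points lie right of 0 on the x axis and along the line of equal change, and the coloured points are those whose ratio changed by more than 1 log2 unit with an unadjusted p below 0.05, 23 higher and 40 lower.

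The overall level of the IP-to-input ratio is set by the scaling of the libraries, and a common shift of all peaks cannot be read from it. Over 2189 peaks with enough input and with IP reads in every library, the median ratio was 0.926 and 0.920 in the LPS replicates and 0.891 and 0.942 in the mock replicates. Across these peaks the Spearman correlation was 0.771 between the LPS replicates, 0.602 between the mock replicates and 0.747 between the means of LPS and mock. The log2 ratio differed between the mock replicates with an SD of 0.737 and between the LPS replicates with an SD of 0.597. The difference between mean LPS and mean mock, each a mean of 2 libraries, had an SD of 0.538.

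The fitted log2 fold change of the ratio with LPS had a median of −0.02 over the 2397 tested peaks, with quartiles of −0.38 and 0.28, and the median became −0.17 with edgeR's RLE scaling and −0.16 with DESeq2. With a fitted change of more than 1 log2 unit and p below 0.05 without adjustment (the unadjusted thresholds), 25 selected peaks were higher after LPS, where the same thresholds called 2.44% of all peaks tested, and 47 were lower, where they called 4.56%. Both directions together came to 72 peaks, or 3.00% of those selected, beside 7% of all peaks. No selected peak had an adjusted p below 0.05 in edgeR, as with 0% of all peaks, and the lowest adjusted p was 0.235. Without adjustment 173 had a p below 0.05, 81 higher and 92 lower, where 5.88% and 5.62% of all peaks, or 11.5% together, had one. DESeq2 called 8 selected peaks, or 0.334%, at a change of more than 1 log2 unit and an adjusted p below 0.05, beside 1.66% of all peaks. All 8 were lower after LPS, where 1.57% of all peaks were called lower, among them those in SF3B1, Pik3r6, C5orf22, Tmem132a, LMO4 and ARIH1, and 1 shared by Krcc1 and Smyd1. In DESeq2 the median of all peaks lay 0.14 lower on the log2 scale than with TMM, as it did with edgeR's RLE scaling. The split of selected peaks at the unadjusted thresholds became 12 higher and 79 lower in DESeq2, beside 1.46% and 6.6% of all peaks. With RLE it became 12 higher and 81 lower.

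Without Adap-/- mock replicate 2, the replicate whose IP library held LPS-induced transcripts, 46 selected peaks were higher and 56 lower at the unadjusted thresholds, or 1.92% and 2.34% of those selected, beside 2.56% and 2.1% of all peaks. Without mock replicate 1 the counts were 76 and 87, beside 4.45% and 6.57% of all peaks, and without LPS replicate 1 they were 28 and 74, beside 3.44% and 4.19%. The split also depended on the window. The 4482 peaks of the window on TMM-scaled CPM held 104 higher and 50 lower at the same thresholds, so that the higher ones outnumbered the lower ones there. Of all peaks, 2.44% were higher and 4.56% lower. No selected peak passed the adjustment in edgeR without any of these replicates. By a rule that needs no model, 440 of the 2193 peaks with enough input had both LPS ratios above both mock ratios and 433 had both below. Over all peaks in the table with enough input these shares were 26.3% and 17.4%, together 43.8%.

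Low input went with wide changes. Selected peaks with a mean of under 10 reads in the Adap-/- input libraries had a log2 fold change with an SD of 1.499, those from 10 to 50 reads of 0.767, those from 50 to 200 reads of 0.498 and those with at least 200 reads of 0.396. The share past the unadjusted thresholds was 4.55% under 10 reads, 5 of 110 peaks and all lower, 6.02% from 10 to 50 reads, 2.97% from 50 to 200 reads and 0.863% from 200 reads on, that is, 7 of 811 peaks. Whether RNA molecules were marked before amplification, or duplicated reads removed, is not stated in the sources used here. Duplicated reads may therefore count as separate reads throughout.

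Of the peaks higher after LPS, the one with the lowest p lay at the start codon of Alkbh5, which encodes an m6A demethylase (ENSMUSG00000042650, chromosome 11, 60429221 to 60429396). Its ratio was 0.920 and 0.979 in the LPS replicates and 0.413 and 0.495 in the mock replicates. The groups did not overlap, but the choice of named peaks by lowest p required this. The log2 fold change was 1.06 (standard error, SE, 0.25, edgeR adjusted p = 0.235). The WT ratios of this peak were 0.677 and 0.719 after LPS and 0.686 and 0.535 in mock, with a log2 fold change of 0.19. The unadjusted p for the difference between the genotypes was 0.0315, and the lowest adjusted p for that difference over the selected peaks was 0.816.

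Ybx3, which encodes a cold-shock domain protein that binds RNA and DNA, had a start codon peak with ratios of 0.748 and 1.19 after LPS and 0.352 and 0.469 in mock, a log2 fold change of 1.22 (SE 0.35, edgeR adjusted p = 0.276). A CDS peak shared by Fgfr2, Ikzf5 and Pstk, which cannot be assigned to 1 of these genes, stood at 2.33 and 1.90 after LPS and 0.770 and 0.844 in mock, with an edgeR adjusted p of 0.235. HECA, whose CDS peak was among the most enriched of those named, had ratios of 3.75 and 5.02 after LPS and 2.37 and 2.40 in mock. Nsd3, which encodes a histone H3 lysine methyltransferase, had a CDS peak at 0.833 and 0.730 after LPS and 0.484 and 0.475 in mock.

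Tlr8, which encodes an endosomal Toll-like receptor, had a stop codon peak at 0.958 and 1.02 after LPS and 0.498 and 0.529 in mock, with a log2 fold change of 0.95 (SE 0.32, edgeR adjusted p = 0.313). In WT the same peak had ratios of 0.993 and 0.628 after LPS and 1.08 and 0.821 in mock, which overlapped. The other 5 selected Tlr8 peaks, all in the CDS, had log2 fold changes between −0.17 and 0.25. The start codon peaks of Tgm2, which encodes a transglutaminase, and of Cd164, which encodes a sialomucin, had larger log2 fold changes of 2.06 and 1.57, on 18 to 25 and 25 to 41 input reads per library. For Tgm2 the mock IP libraries held 52 and 8 reads, and the interval listed for its peak spans 3216 bases. The CDS peaks of Pprc1, which encodes a transcription coactivator related to PGC-1, and Znf319, a zinc finger gene, completed the higher set together with RSBN1L, described below, and a stop codon peak of ENSMUSG00000045763.

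**Figure D2:**
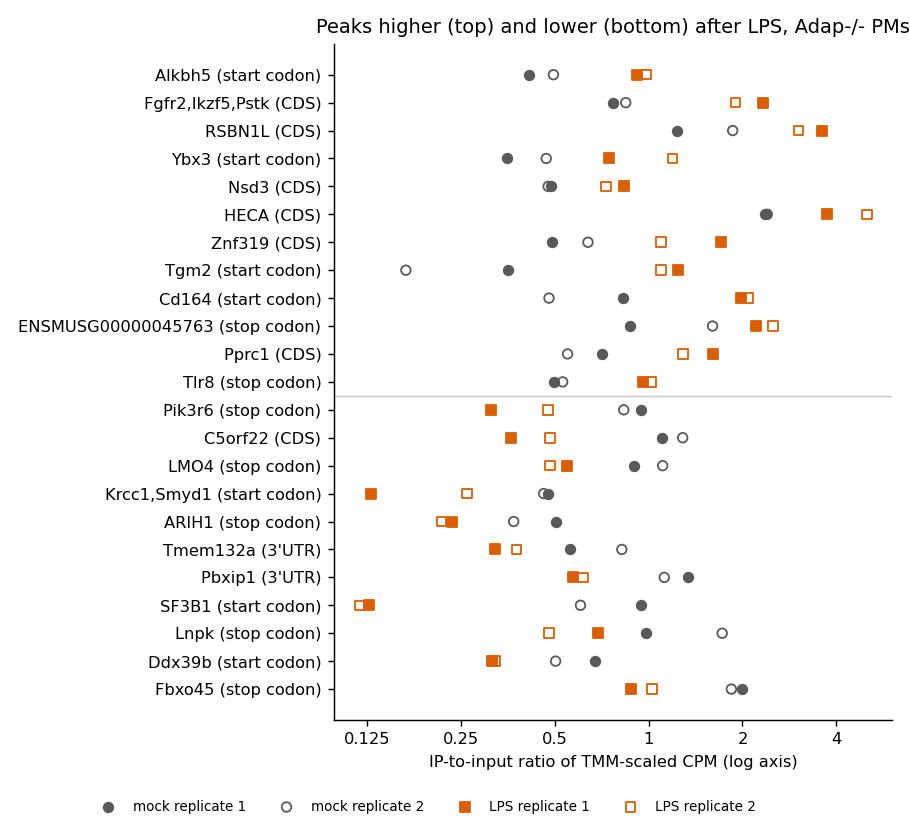
IP-to-input ratio (x axis, log scale, TMM-scaled CPM) in each Adap-/- replicate for 12 higher and 11 lower selected peaks, chosen by lowest p among those whose replicates did not overlap. Circles are mock and squares LPS replicates. In the upper 12 peaks both squares lie right of both circles and in the 11 below both lie left, and adjusted p-values from edgeR lay between 0.235 and 0.313.

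Of the peaks lower after LPS, the one with the lowest p lay at the stop codon of Pik3r6, which encodes a regulatory subunit of PI3-kinase gamma (chromosome 11, 68442952 to 68443077). Its ratio stood at 0.313 and 0.476 after LPS, against 0.944 and 0.831 in mock. The log2 fold change was −1.20 (SE 0.26, edgeR adjusted p = 0.235), and lay between −1.5 and −0.88 when a replicate of any group was left out. In WT PMs the same peak had ratios of 0.932 and 0.753 after LPS and 0.617 and 0.570 in mock, with a log2 fold change of 0.50. The difference between the genotypes was −1.70 on the log2 scale (standard error 0.38), with an unadjusted p of 0.000809 and an adjusted p of 0.816 from edgeR.

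LMO4, which encodes a LIM-only transcription co-regulator, had by far the deepest of the lower peaks named, with 1001 to 3438 input reads per Adap-/- library at its stop codon. Its ratio stood at 0.547 and 0.482 after LPS, against 0.898 and 1.11 in mock, a log2 fold change of −0.97 (SE 0.23, adjusted p = 0.235 in edgeR, 0.0012 in DESeq2). The IP reads on this peak rose by 0.75 on the log2 scale (edgeR adjusted p = 0.00458) and the input level was higher by 1.71. In WT the ratios were 0.719 and 0.670 after LPS and 1.14 and 1.07 in mock. Each of the 4 LPS replicates thus lay below each of the 4 mock replicates. Within Adap-/- PMs this order was required by the choice of the peak. Lnpk, which encodes a protein of endoplasmic reticulum junctions, and Tmem132a also had a larger log2 change in the input, 1.68 and 1.14, than in the IP reads, 0.45 and 0.17.

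SF3B1, which encodes a core splicing factor of the U2 snRNP, had the lowest log2 fold change of the 12 lower peaks, with ratios at its start codon of 0.126 and 0.118 after LPS and 0.947 and 0.604 in mock. This log2 fold change of −2.65 (SE 0.72, edgeR adjusted p = 0.251) rests on 21 to 26 input reads per library and on 24 and 13 IP reads after LPS. The interval listed for this SF3B1 peak spans 8113 bases. The start codon peak of Ddx39b, which encodes an RNA helicase of splicing and mRNA export, stood at 0.314 and 0.320 after LPS and 0.674 and 0.503 in mock. Its WT ratios were 0.712 and 0.669 after LPS and 0.459 and 0.469 in mock, and the difference between the genotypes had an unadjusted p of 0.00202 and did not pass the adjustment in edgeR.

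The stop codon peak of ARIH1, which encodes an RBR-type ubiquitin ligase, stood at 0.233 and 0.216 after LPS and 0.505 and 0.369 in mock, and that of Fbxo45, an F-box gene, at 0.878 and 1.02 after LPS and 1.99 and 1.84 in mock. The CDS peak of C5orf22 stood at 0.361 and 0.481 after LPS and 1.11 and 1.29 in mock. The 3'UTR peak of Pbxip1 stood at 0.570 and 0.615 after LPS and 1.34 and 1.12 in mock. Of these peaks, ARIH1 and C5orf22 were called by DESeq2 after adjustment and none by edgeR.

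Further peaks past the unadjusted thresholds are described here after their values were seen. Phlpp1, which encodes a phosphatase that acts on AKT, had the highest log2 fold change of all selected peaks tested, 3.49, with CDS ratios of 1.49 and 2.72 after LPS and 0.298 and 0.101 in mock, and a WT value of 1.02. Il17ra, which encodes a subunit of the receptor for IL-17, had a stop codon peak at 0.837 and 1.31 after LPS and 0.363 and 0.658 in mock. Zswim4 had closely matched replicates at its stop codon, 1.02 and 1.14 after LPS and 0.484 and 0.497 in mock.

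Among the lower ones, Cflar, which encodes the caspase-8 inhibitor c-FLIP, had a peak with no listed region at 0.0901 and 0.212 after LPS and 0.925 and 0.455 in mock. Cycs, which encodes cytochrome c, had a start codon peak at 0.247 and 0.232 after LPS and 0.402 and 0.807 in mock, and Timm17a, a subunit of the inner membrane translocase, a stop codon peak at 0.323 and 0.136 after LPS and 0.537 and 0.624 in mock. The WT values of Cflar, Cycs and Timm17a were 0.0045, 0.04 and −0.29 on the log2 scale, and none of these peaks passed the adjustment in edgeR.

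The WT libraries were not used to select the peaks and give the same measure on other samples. In WT PMs, 46 of the selected peaks passed the unadjusted thresholds, 21 higher and 25 lower after LPS, where 2.69% and 5.13% of all peaks passed them. Together this was 1.92% of the selected and 7.82% of all peaks. Without WT mock replicate 1, the replicate whose IP library held LPS-induced transcripts, 42 selected peaks and 3.67% of all peaks passed them. Without WT mock replicate 2 the count of selected peaks and the share of all peaks were higher than with all replicates. Without either WT LPS replicate both were lower. With all replicates no selected peak passed the adjustment in edgeR in WT. DESeq2 called 3 selected peaks after adjustment, beside a larger share, 2.79%, of all peaks. At an unadjusted p below 0.05 in edgeR, 44 selected peaks were higher and 64 lower, beside 4.82% and 5.99% of all peaks, 10.8% together. Of 2165 selected peaks with enough WT input, 365 had both LPS ratios above both mock ratios and 445 both below, beside 26.7% and 16.8% of all such peaks, 43.5% together. The WT median log2 fold change was −0.03. Across 2130 peaks with enough input in both genotypes, the LPS effects on the ratio had a Pearson correlation of 0.232 and a Spearman correlation of 0.224. These peaks share the 16-library fit, but no library is used in both effects.

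Of the 25 peaks higher in Adap-/- PMs, 14 also had a positive WT value, and of the 47 lower, 25 also had a negative one. Over all selected peaks tested the sign was shared by 57.1%. The median WT log2 fold change was 0.08 over the 25 and −0.02 over the 47, against 1.34 and −1.30 in Adap-/- PMs.

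Of the 72 peaks, 6 also had an unadjusted p below 0.05 in WT, all in the same direction, and they were singled out after their values were seen. RSBN1L, in its CDS, was the only one of them that was higher, with ratios of 3.59 and 3.03 after LPS and 1.23 and 1.86 in mock in Adap-/- PMs, and of 1.99 and 2.19 after LPS and 0.919 and 0.949 in mock in WT. Its log2 fold changes were 1.11 and 1.15, on 26 to 42 input reads per library. Cybb, which encodes the catalytic subunit of the phagocyte NADPH oxidase, had a start codon peak at 0.419 and 0.472 after LPS and 1.00 and 0.845 in mock in Adap-/- PMs.

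In WT the Cybb peak stood at 0.483 and 0.455 after LPS and 1.46 and 1.20 in mock. The log2 fold changes of Cybb were −1.03 in Adap-/- and −1.51 in WT (edgeR adjusted p = 0.29 and 0.204). Stx11, a syntaxin gene, in its 3'UTR had log2 fold changes of −1.11 and −0.99, and Lnpk at its stop codon of −1.23 and −1.03. Zmynd15 had −1.89 and −2.87 at its start codon, on as few as 8 reads in a WT mock input library.

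**Figure D3:**
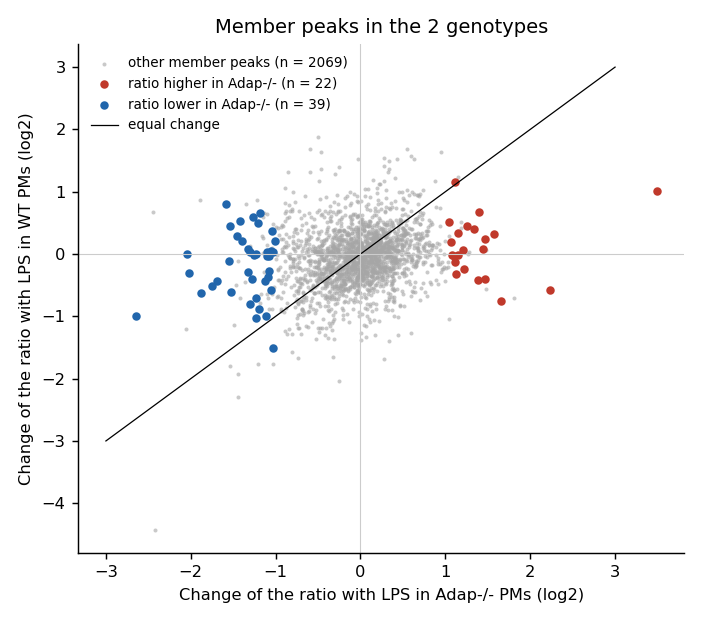
Log2 change of the IP-to-input ratio with LPS in Adap-/- PMs (x axis) and WT PMs (y axis), 1 point per selected peak with at least 10 reads in each input library of both genotypes (n = 2130). The red and blue points, past the unadjusted thresholds in Adap-/- PMs, spread to both sides of 0 on the WT axis, with RSBN1L near the line of equal change on the right.

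The difference between the LPS effects of the genotypes passed the unadjusted thresholds on 59 selected peaks, 22 higher and 37 lower in Adap-/- PMs, beside 1.02% and 1.74% of all peaks. Together this was 2.46% of the selected and 2.76% of all peaks. None passed the adjustment in edgeR or in DESeq2. The 59 became 57 without WT mock replicate 1, beside 3.34% of all peaks, and 187 without WT mock replicate 2, beside 6.4%. Both the count and the share of all peaks were higher without either Adap-/- mock replicate than with all replicates. Without either WT LPS replicate both were lower. At an unadjusted p below 0.05, edgeR called 31 higher and 46 lower, beside 1.30% and 1.93% of all peaks, 3.23% together. Of the 72 peaks past the unadjusted thresholds in Adap-/- PMs, 21 were also among these 59. They included Pik3r6, C5orf22, Pbxip1 and Ybx3, the shared peaks of Fgfr2 and of Krcc1, and 2 start codon peaks of Rnpepl1.

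By location, the ratios of CDS peaks lay higher relative to those of 3'UTR peaks after LPS than in mock, in both genotypes. Of the selected peaks, 785 lay at a stop codon, 738 in the CDS, 383 in the 3'UTR, 363 at a start codon and 67 in the 5'UTR. The median log2 fold change in Adap-/- PMs was 0.14 in the CDS and −0.15 in the 3'UTR, with −0.05 at the stop codon and −0.24 at the start codon. The WT medians, in the same order, came to 0.11, −0.18, −0.08 and −0.15. This comparison was chosen after the values were seen and is given without a test.

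Among peaks with at least 10 reads in all 8 input libraries and an IP read in every library, 666 in the CDS and 356 in the 3'UTR, the median log2 ratio in the CDS was −0.03 and −0.06 in the Adap-/- LPS replicates and −0.24 and −0.15 in mock. The 3'UTR median stood at −0.32 and −0.39 after LPS and at −0.26 and −0.15 in mock. The CDS median minus the 3'UTR median was therefore 0.29 and 0.33 after LPS and 0.01 and 0.00222 in mock. This change of 0.30 rests on 2 replicates per group and was not tested. In WT PMs the same difference came to 0.30 and 0.34 after LPS, against −0.05 and 0.06 in mock. All 4 LPS replicates thus lay above all 4 mock replicates, including those whose IP libraries held LPS-induced transcripts. The part of these transcripts in the difference was not tested. For a fixed set of peaks the scaling factor of a library cancels in the difference, but the window was set on unscaled CPM.

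**Figure D4:**
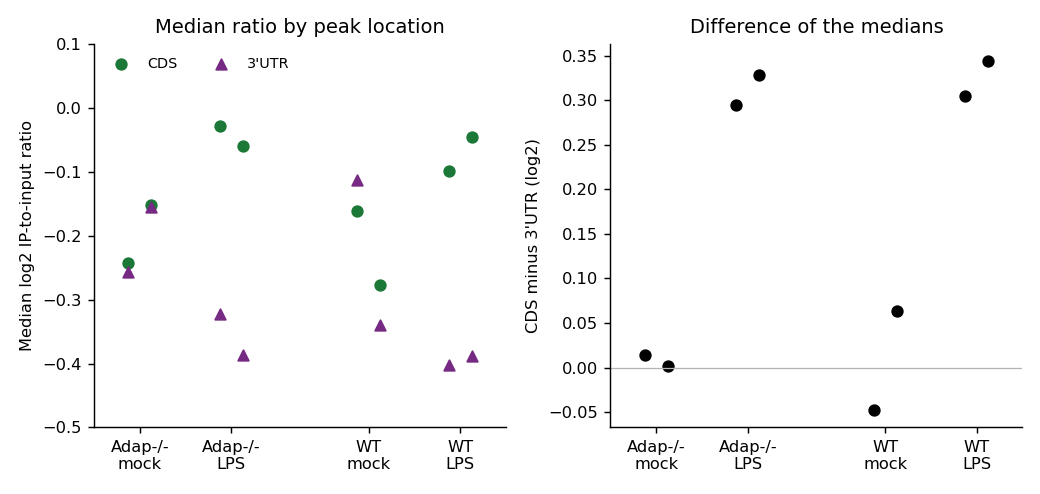
Left, median log2 IP-to-input ratio of 666 CDS peaks (circles) and 356 3'UTR peaks (triangles) in each replicate of each group. Right, the CDS median minus the 3'UTR median, 1 point per replicate, between 0.29 and 0.34 in the 4 LPS replicates and between −0.05 and 0.06 in the 4 mock replicates.

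The parts of the ratio are given for this difference without a test, and the input of the Adap-/- libraries was used to select the peaks. In the Adap-/- input libraries the CDS median minus the 3'UTR median of the log2 level came to −0.63 and −0.62 after LPS, against −0.39 and −0.51 in mock, and in the IP libraries −0.33 and −0.33 after LPS and −0.52 and −0.40 in mock. In WT the input showed −0.73 and −0.70 after LPS and −0.42 and −0.53 in mock, and the IP libraries −0.56 and −0.49 after LPS and −0.42 and −0.55 in mock.

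The order of these values depended on the choice of peaks. Outside the window the Adap-/- input values were −0.22 and −0.25 after LPS and −0.37 and −0.27 in mock, that is, higher after LPS rather than lower, and the WT input values of −0.34 and −0.39 after LPS also lay above the −0.56 and −0.58 in mock. The WT IP values of LPS and mock did not overlap in 3 other sets of peaks. They were −0.21 and −0.21 after LPS and −0.51 and −0.70 in mock outside the window, 0.28 and 0.22 against −0.03 and −0.16 in a window of 0.7 to 1.4, and −0.42 and −0.39 against −0.56 and −0.65 in the window on TMM-scaled CPM.

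The difference in the ratio was also computed on peaks that the window left out. Over 1174 CDS and 560 3'UTR peaks outside the window, the CDS median minus the 3'UTR median of the log2 ratio was 0.24 and 0.23 in the Adap-/- LPS replicates and −0.21 and 0.01 in mock, and 0.11 and 0.16 after LPS and −0.04 and −0.11 in mock in WT. Within genes, 45 genes had both a CDS and a 3'UTR peak among the selected peaks that met the read minimum and were annotated to 1 gene. Their median CDS minus 3'UTR difference came to 0.27 and 0.32 after LPS, against −0.30 and −0.13 in mock in Adap-/- PMs, and it increased with LPS in 32 of the 45. In WT this difference came to 0.06 and 0.17 after LPS and −0.12 and −0.15 in mock, and it increased in 28 of the 45.

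By location, the peaks past the unadjusted thresholds in Adap-/- PMs are given as counts, with no test. Over all locations, 1.04% of the selected peaks were higher and 1.96% lower, beside 2.44% and 4.56% of all peaks. Of 738 CDS peaks tested 11 were higher and 8 lower, and of 785 at the stop codon 4 were higher and 10 lower. Of 383 in the 3'UTR none was higher and 8 were lower, among them those of Tab1, Stx11 and Pbxip1. Of 362 at the start codon 9 were higher and 17 lower, and of 67 in the 5'UTR 1 was higher and 2 were lower.

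Several genes carried more than 1 selected peak, and the fitted changes of peaks of 1 gene often differed in sign. The median SE of a change was 0.62 for selected peaks with a mean of 10 to 50 input reads and 0.29 from 200 reads on. The part of this measurement spread in the differing signs was not tested. Of 406 genes with at least 2 selected peaks with enough input, 189 had all their peaks on the same side of 0. Over the 262 genes with exactly 2, the values of the pair had a Pearson correlation of 0.167 and a Spearman correlation of 0.160, and 146 shared the sign. In 10 genes at least 2 peaks had an unadjusted p below 0.05, in 6 of them with these peaks in the same direction.

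Smcr8, which encodes a partner of C9orf72 in autophagy, was among these 6. All 6 of its selected peaks had a positive value, from 0.40 to 0.81 on the log2 scale, and 3 of them had an unadjusted p below 0.05. In WT the same peaks lay between −0.01 and 0.37. Lyn, which encodes a Src-family kinase of macrophages and B cells, had a 3'UTR peak at 0.686 and 0.578 after LPS and 1.01 and 0.906 in mock, and a stop codon peak at 0.374 and 0.527 after LPS and 0.658 and 0.855 in mock. The log2 fold changes of these Lyn peaks were −0.60 and −0.74, and in WT −0.85 and −0.58. The LPS and mock replicates of both peaks did not overlap in either genotype. For the 3'UTR peak the unadjusted p was 0.0193 in Adap-/- PMs and 0.00243 in WT, and for the stop codon peak 0.0168 and 0.0505.

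Prdm1, Rusc2 and CRYBG1 were among the genes with such peaks in both directions. In Prdm1, which encodes the transcriptional repressor BLIMP-1, the CDS peak had ratios of 2.18 and 2.46 after LPS and 1.58 and 1.66 in mock, and 1 of its stop codon peaks had 0.652 and 0.257 after LPS and 0.644 and 1.30 in mock. The replicates of the latter overlapped, and the log2 fold changes were 0.51 and −1.18.

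The m6A regulators had 17 selected peaks on 7 genes, of which 1 was higher at the unadjusted thresholds and none lower, with a median log2 fold change of −0.02, the same as over all selected peaks. Neither Mettl3 nor Mettl14 had a peak in the table. Wtap had 5 selected peaks. At its 2 stop codon peaks, the better covered with 205 to 252 input reads per library, the ratios were 0.580 and 0.559 after LPS and 0.573 and 0.782 in mock, and 1.03 and 0.812 after LPS and 0.935 and 0.889 in mock. The groups overlapped at both, with log2 fold changes of −0.25 and 0.01. Its 3'UTR peak stood at 0.512 and 0.494 after LPS and 0.842 and 0.627 in mock (log2 fold change −0.53, edgeR unadjusted p = 0.0562, adjusted 0.444). The remaining 2 Wtap peaks, at the start codon and in the 5'UTR, had as few as 7 and 1 input reads in a library, and values of −0.60 and −1.39 with standard errors of 0.73 and 1.66.

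Among the readers, Ythdf1, which encodes a YTH-domain protein linked to translation, had 2 CDS peaks whose replicates did not overlap. These stood at 1.16 and 0.843 after LPS and 0.668 and 0.721 in mock, and at 0.730 and 0.612 after LPS and 0.329 and 0.498 in mock. Their log2 fold changes were 0.51 and 0.72, at edgeR adjusted p-values of 0.396 and 0.348, and the WT values were −0.15 and −0.55. The third Ythdf1 peak was at −0.02. Ythdc1, the nuclear reader, had 2 peaks in the 3'UTR at −1.36 and −0.89, neither past the unadjusted thresholds, and in WT −0.45 and −1.24.

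TLR4 and NF-κB signalling had 29 selected peaks on 20 genes, 1 lower and none higher, with a median of −0.07. The lower one was a 3'UTR peak of Tab1, which encodes a binding partner of the kinase TAK1, at 0.308 and 0.266 after LPS and 3.96 and 1.72 in mock, a log2 fold change of −3.48 (SE 1.08, edgeR adjusted p = 0.29). It rests on 5 to 10 input reads per library. The stop codon peak of Tlr4 stood at 2.95 and 2.53 after LPS and 2.30 and 1.998 in mock, a log2 fold change of 0.35 with an adjusted p of 0.654. The stop codon peak of Nfkb1, the last inside the window, stood at 0.482 and 0.5501 after LPS and 0.604 and 0.933 in mock.

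The macrophage surface receptor and lysosome genes had the lowest median of the 8 lists, −0.30, over 17 selected peaks on 12 genes. Of the 17, 15 lay below 0, where 1249 of all 2397 selected peaks tested did. In WT the median of the 17 was −0.28. At the unadjusted thresholds 2 were lower and none higher. The start codon peak of Msr1, a scavenger receptor gene, stood at 0.300 and 0.336 after LPS and 0.864 and 0.655 in mock (log2 fold change −1.20), with a log2 change of 0.01 in the IP reads and of 1.21 in the input. The start codon peak of Adgre1, which encodes F4/80, stood at 0.337 and 0.448 after LPS and 1.51 and 0.6005 in mock (log2 fold change −1.42), against 0.54 in WT. The intervals that the table lists for these peaks of Msr1 and Adgre1 span 9920 and 3015 bases.

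The myeloid and immediate-early transcription factors had the highest median, 0.15, over 33 selected peaks on 20 genes. Of the 33, 20 lay above 0, where 1148 of all 2397 selected peaks tested did. In WT the median of the 33 was −0.05. The single peak past the unadjusted thresholds was higher, at the stop codon of Runx1, with 0.753 and 1.09 after LPS and 0.478 and 0.324 in mock (log2 fold change 1.20, edgeR adjusted p = 0.42). Cebpd and Spi1, which encode C/EBP delta and PU.1, had stop codon peaks at 1.66 and 1.64 against 0.895 and 1.17, and at 2.58 and 3.23 against 1.68 and 2.15, respectively, LPS against mock. Neither of these passed the unadjusted thresholds.

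The chromatin regulators had 37 selected peaks, the cytokine feedback and mRNA decay genes 13, the interferon receptor, JAK, STAT and IRF genes 12 and the MAP kinase and Sprouty genes 7, and no peak of these 4 lists passed the unadjusted thresholds in Adap-/- PMs. Their medians lay between −0.06 and −0.01. Spry1, Cish and Cd300lb had no selected peak. Pou3f1, which encodes a POU-domain transcription factor, had a CDS peak with 17 and 6 input reads after LPS and 2 and 5 in mock and with IP reads of 246 and 75 after LPS and 9 and 0 in mock. Its log2 fold change of 3.16 had an SE of 1.54 and an edgeR adjusted p of 0.463, and 1 of its mock libraries held no IP read.

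**Figure D5:**
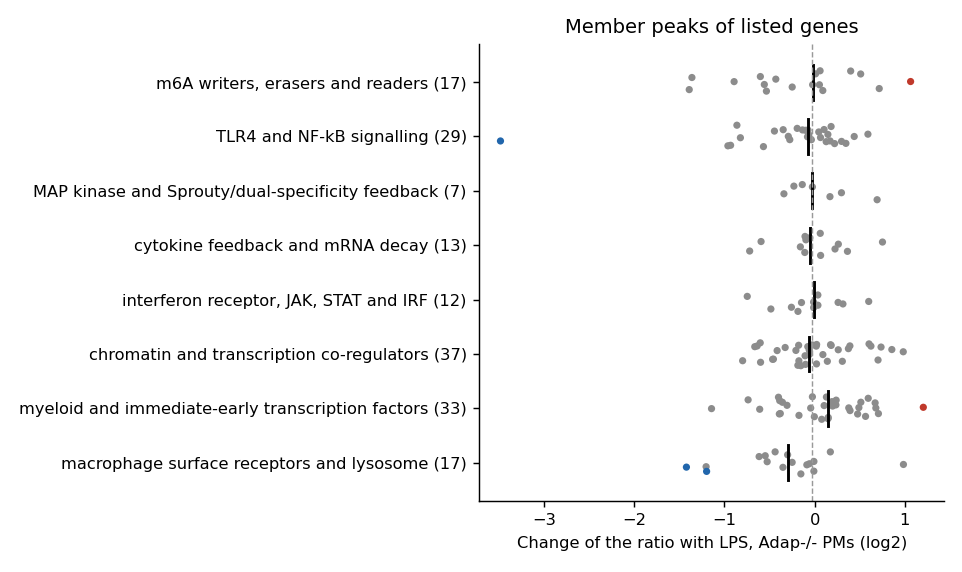
Log2 change of the IP-to-input ratio with LPS in Adap-/- PMs (x axis) for the selected peaks of 8 gene lists, with the number of peaks of each list in brackets. Black bars are list medians, the dashed line is the median of all selected peaks (−0.02), and red and blue points are past the unadjusted thresholds. Medians range from −0.30 in the surface receptor and lysosome list to 0.15 in the transcription factor list.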

How the data were processed

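The authors processed the MeRIP-seq reads on the Omicsmart platform and deposited raw read counts on merged peaks, with gene, region and strand. The submitters' processing notes name GRCm39, Bowtie2 2.2.8, MACS2 2.1.2 and DiffBind 2.8, without their role or order. The 8094 lines of the table, 1 per peak and gene, were reduced to 7069 distinct peaks, and the 16 count columns were mapped to samples by name. Gene names are those of the table.

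Counts of all 16 libraries were fitted in R 4.3.3 with edgeR 4.0.16 (quasi-likelihood test after TMM scaling and filterByExpr, whose settings were 10 reads per library and 15 in all), with 1 mean per genotype, treatment and library type. The contrast was the IP-to-input ratio after LPS against mock. Benjamini-Hochberg adjustment was over the 7058 peaks tested. Of the selected peaks 1 was left out by the filter. Alternatives included DESeq2 1.42.0, RLE and upper-quartile scaling, other filters and windows, replicate blocks and leaving out each replicate. The steps were tested on simulated data. At the spread of these libraries, 77 of 200 peaks given a 4-fold change passed the adjustment at p below 0.05 in edgeR. Of 6857 unchanged peaks, 2 passed the adjustment and 340 passed the unadjusted thresholds.

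Named peaks are 12 higher and 12 lower ones, those of lowest p among selected peaks with at least 10 reads in each Adap-/- input library and non-overlapping replicates, peaks of listed genes past the unadjusted thresholds, and peaks of Mettl3, Mettl14, Wtap, Spry1, Pou3f1, Cish, Cd300lb and Fyb1. Others were named after their values were seen, and 1 gene is not reported here. The peaks and the 8 gene lists were chosen with earlier results of these data known. The IP and input libraries of a replicate share its number in their titles, and the authors kept part of the fragmented RNA as input. The ratios per replicate pair these libraries, whereas the main edgeR fit did not. Across 5639 peaks their deviations from the group means had a correlation of 0.0869 in Adap-/- LPS, 0.0667 in Adap-/- mock, 0.158 in WT LPS and −0.123 in WT mock.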

Additional observations from a re-analysis of the deposited data

How the results depend on the processing

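No selected peak passed the adjustment in edgeR under any alternative run on the ratio in Adap-/- PMs. With the replicate block of IP and input libraries, 26 peaks were higher and 44 lower at the unadjusted thresholds, and with the replicate number as a block 28 and 48, so that pairing changed no adjusted call. RLE gave 12 and 81, TMM within IP and within input 12 and 81, and DESeq2 12 and 79, the last beside 1.46% and 6.6% of all peaks. DESeq2 made 8 adjusted calls in Adap-/- and 3 in WT, beside 1.66% and 2.79% of all peaks. A window of 0.7 to 1.4 (951 peaks) gave 9 and 22, with 20 in WT and 21 for the difference between genotypes. The window on TMM-scaled CPM (4482 peaks) gave 104 higher and 50 lower, 92 in WT and 111 for the difference. Of all peaks, the main fit called 2.44% higher and 4.56% lower in Adap-/-, 7.82% in WT and 2.76% for the difference. A 1.5-fold threshold gave 69, 87 and, in WT, 97. IP reads alone gave 491 higher, 475 adjusted calls, and 504 and 451 in WT. Leaving out a replicate gave 20 to 76 higher (76 without Adap-/- mock replicate 1, 46 without mock replicate 2), 37 to 87 lower (87 without Adap-/- mock replicate 1, 74 without LPS replicate 1), 25 to 220 in WT (220 without WT mock replicate 2, 25 and 27 without WT LPS replicates 1 and 2), 0 to 4 adjusted calls in WT, and 29 to 187 for the difference (187 without WT mock replicate 2, 98 and 94 without Adap-/- mock replicates 1 and 2, 29 and 38 without WT LPS replicates 1 and 2). A group then had 1 replicate, assumed to vary like the others. In each fit without a replicate, a smaller share of selected peaks than of all peaks passed the unadjusted thresholds in Adap-/- and in WT. For the difference the share was larger among selected peaks without WT mock replicate 2 or either Adap-/- mock replicate, and smaller otherwise. The cause of the shifts in these counts was not tested.

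The change between CDS and 3'UTR peaks, with alternatives chosen after seeing the data, was 0.30 and became 0.38 in the 0.7 to 1.4 window, 0.32 in the TMM-scaled window, 0.33 with peaks of 1 gene and 0.29 to 0.32 without a replicate. Among named peaks, direction reversed for the IP reads alone at LMO4 (0.75), Tmem132a (0.17), Lnpk (0.45), Msr1 (0.00598) and the Wtap peaks at a stop codon (0.0241) and at the start codon (0.58). The Wtap stop codon peak at 0.01 became −0.13 with RLE, with TMM within IP and within input and with DESeq2, and lay between −0.15 and 0.17 when a replicate was left out, below 0 without Adap-/- LPS replicate 1 (−0.15), Adap-/- mock replicate 1 (−0.01), Adap-/- mock replicate 2 (−0.07) or WT mock replicate 2 (−0.03). Leaving out a replicate gave −1.80 to 0.63 for the Wtap start codon peak (0.63 without Adap-/- mock replicate 2) and −3.38 to 0.15 for the Wtap 5'UTR peak (0.15 without Adap-/- LPS replicate 1). For the second Fyb1 peak it gave −4.72 to 1.24 (1.24 without Adap-/- mock replicate 1). That peak rests on almost no Adap-/- input reads, so its values are not interpreted.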
